A study of Mus musculus with 20 samples.

Results

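Lung RNA from mouse dams was examined for 7 chemokine genes: Cxcl1, Cxcl2, Cxcl3, Cxcl5, Cxcl15, Ppbp and Pf4. They were found on two-colour Agilent mouse arrays by the gene name of each probe, or through its accession where the array carries an older name (Gm1960 for Cxcl3, Cxcl7 for Ppbp, Cxcl4 for Pf4). The 7 genes had 8 probes, 2 of them for Cxcl15, and 6 of the 7 genes were bright enough to be among the 19926 genes tested. The animals were 20 female C57BL/6BomTac mice, time-mated young adults in their first pregnancy, and all of them received 4 intratracheal instillations in pregnancy, at gestational days 7, 10 and 15 and a last one at day 18. The 5 control dams received Milli Q water, the vehicle. The 5 low-dose dams received carbon black Printex 90, a soot-like nanoparticle, to a total of 11 µg, the 5 medium-dose dams a total of 54 µg and the 5 high-dose dams a total of 268 µg, which is 2.75, 13.5 and 67 µg per instillation. Controls therefore shared the pregnancy, the handling and the instilled water with the exposed dams. Lungs were taken 26 to 27 days after exposure, once the pups had been weaned, so each dam gives 1 late time point and the tissue was not separated into cell types.

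CXC chemokines are small secreted proteins that steer white blood cells along a concentration gradient. Those with an ELR motif (glutamate, leucine, arginine) ahead of the first cysteine act on the receptor Cxcr2 of neutrophils and draw these cells into inflamed tissue. In mouse lung, epithelial cells and macrophages make several of them when the cytokines IL-1, TNF and IL-17 activate NF-kB. Cxcl1 (KC), Cxcl2 (MIP-2), Cxcl3 and Cxcl5 (LIX) are the inducible ligands, Cxcl15 (lungkine) is a chemokine of mouse lung epithelium, and Ppbp and Pf4 encode proteins stored in platelet granules. Pf4, platelet factor 4, lacks the ELR motif and is included as the neighbour and granule partner of Ppbp.

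All 7 genes lie in 1 cluster on mouse chromosome 5, in the order Cxcl5, Ppbp, Pf4, Cxcl3, Cxcl15, Cxcl1 and Cxcl2 in RefSeq's GRCm38.p6 annotation. The sequences just upstream of the annotated start are shown for the inducible ligands Cxcl1, Cxcl2 and Cxcl3, and for Cxcl15 as a cluster member of another kind. Each is 250 bases long, read 5′ to 3′ on the plus strand and taken from RefSeq's GRCm38.p6. The windows are chr5:90890995-90891244 (Cxcl1), chr5:90903649-90903898 (Cxcl2), chr5:90785851-90786100 (Cxcl3) and chr5:90794284-90794533 (Cxcl15). Capitals mark matches to an NF-kB motif, GGAANTTCC (N is any base, and the motif reads the same on both strands), and the TATA box letters TATAAA.
Cxcl1: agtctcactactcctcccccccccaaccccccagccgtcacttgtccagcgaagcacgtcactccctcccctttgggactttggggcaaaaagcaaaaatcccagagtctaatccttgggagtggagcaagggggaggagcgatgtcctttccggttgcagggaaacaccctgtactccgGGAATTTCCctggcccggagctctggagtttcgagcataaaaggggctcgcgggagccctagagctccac
Cxcl2: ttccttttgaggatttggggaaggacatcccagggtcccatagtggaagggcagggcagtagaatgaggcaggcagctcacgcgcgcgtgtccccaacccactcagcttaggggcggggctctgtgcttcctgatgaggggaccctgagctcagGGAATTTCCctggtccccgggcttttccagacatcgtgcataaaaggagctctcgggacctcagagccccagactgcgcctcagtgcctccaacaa
Cxcl3: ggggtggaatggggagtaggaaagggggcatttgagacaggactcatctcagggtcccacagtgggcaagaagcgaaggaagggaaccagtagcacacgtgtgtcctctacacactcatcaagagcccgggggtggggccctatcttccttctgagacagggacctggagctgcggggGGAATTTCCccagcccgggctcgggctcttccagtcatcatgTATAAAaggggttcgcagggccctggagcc
Cxcl15: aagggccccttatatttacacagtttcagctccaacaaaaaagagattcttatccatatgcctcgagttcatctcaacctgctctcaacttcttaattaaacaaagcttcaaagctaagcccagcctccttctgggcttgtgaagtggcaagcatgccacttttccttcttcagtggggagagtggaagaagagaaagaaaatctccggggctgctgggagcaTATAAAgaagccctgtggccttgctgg

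The NF-kB motif occurred in Cxcl1, Cxcl2 and Cxcl3, which are 3 of the 6 members with a sequence in the table, and in 0.811% of all 32817 upstream windows of 250 bases, which belong to 26994 genes. The match lay at -70 to -62 from the start in Cxcl1, at -96 to -88 in Cxcl2 and at -72 to -64 in Cxcl3. All 3 matches read GGAATTTCC, letters that stood in 0.286% of all windows on either strand. The letters TATAAA, searched on the gene's strand, were found in Cxcl3, Cxcl15 and Ppbp and in 7.6% of all windows. Letters of the AP-1 motif, TGANTCA, were found in Ppbp and in 6.75% of windows, and those of a C/EBP motif, TTGCNNAA, in Pf4 and in 9.57%, both searched on both strands. These motifs do not overlap each other in the windows. They were chosen with the sequences in view. Other spellings of the NF-kB motif were also tried, and each matched the same 3 genes, while the share of windows depended on the spelling, lower for a longer fixed one and higher for a looser one. A match describes letters, not binding.

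**Figure D1:**
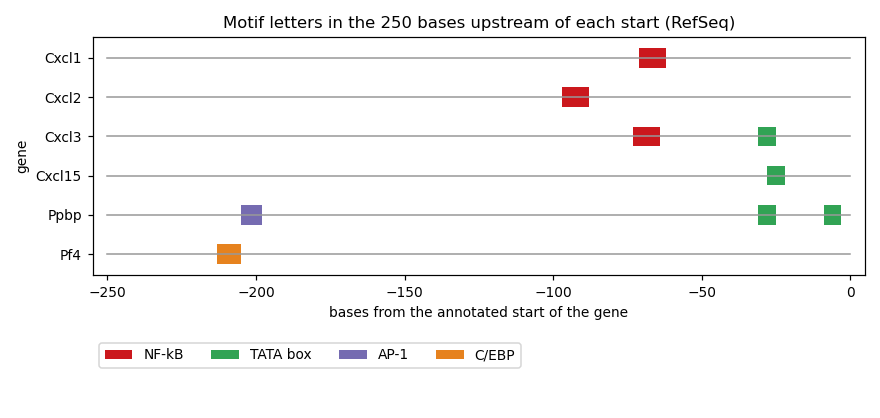
Positions of the motif letters in the 250 bases upstream of the annotated start of 6 chemokine genes; the horizontal axis is the distance from the start in bases, each line is 1 gene and each block is 1 match. The NF-kB matches lie between -96 and -62 in Cxcl1, Cxcl2 and Cxcl3, and none lies in Cxcl15, Ppbp or Pf4.

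Every value below is M, the log2 ratio of the dam's lung (Cy5) over a common universal mouse reference RNA (Cy3) on the same array. It is taken after background correction with an added offset and normalisation within the array. An M of 0 therefore does not mean equal raw signal. Pf4 in high-dose dam 63, for example, had an M of 0.02 with raw signals of 9736.5 in Cy5 and 5295 in Cy3. Each dam had 1 array, and its dyes were never swapped. Between 63.3 and 77.8% of probes were well above background in the lung channel, the median lung signal of an array was 161.5 to 246.5 intensity units over a background of 80 to 83, and M correlated at 0.948 to 0.988 between any 2 arrays across genes. Markers of alveolar type 2 cells, the surfactant-making cells of the lung, averaged 3.25 to 3.64 in high-dose lungs and 3.24 to 3.86 in control lungs, far above the reference in every dam. Slides 1 to 3 held all 4 groups, slides 4 and 5 lacked the medium dose, and slide 6 held only medium-dose dams 49 and 50. On slides 1 to 5 each group always had the same position, so position and group cannot be told apart.

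Cxcl5 was the chemokine that stood out at the high dose. Its M was -1.57, 1.00, 1.07, -1.39 and -0.40 in high-dose dams 60, 62, 63, 64 and 65, against -3.34, -3.01, -3.36, -3.66 and -3.29 in control dams 4, 7, 14, 15 and 18. All high-dose dams lay above all control dams, as they did for 1.18% of all genes, and M was positive in dams 62 and 63. The mean was -0.26 ± 1.26 in high-dose lungs and -3.33 ± 0.23 in control lungs (SD, n = 5 each). This is an 8.44-fold rise (log2 3.08, SE 0.38, 95% interval 4.86 to 14.7-fold) with a Benjamini-Hochberg adjusted p of 0.00254 from limma. Of all genes tested Cxcl5 had the smallest p and the largest rise. The SE and interval use the spread shared by all dose groups, although the SD of Cxcl5 was larger at the high dose. Fitted on the high-dose and control dams alone, the adjusted p was 0.122 (limma). With the scanner software's own log ratios, which use no offset, the difference was log2 4.10 (adjusted p 0.00488, limma). In such tissue, more cells that express a gene and more RNA of it per cell cannot be told apart.

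The low and medium doses showed no such rise. Cxcl5 M ranged from -3.55 to -3.16 in low-dose dams and from -3.85 to -3.12 in medium-dose dams, both overlapping the control values. The log2 difference from control was -0.00 at the low dose (95% interval 0.57 to 1.74-fold, adjusted p 0.999) and -0.10 at the medium dose (0.54 to 1.63-fold, adjusted p 0.939, limma). Changes within these intervals are not excluded by this fit. Its shared spread includes the high-dose dams (SD 1.26), while the SD was 0.23 in control, 0.14 in low-dose and 0.29 in medium-dose dams. The width of the intervals is thus not the scatter of the low- and medium-dose dams alone. The intervals are not a detection limit, since a larger change could also miss the adjusted threshold of 0.05. Cxcl1 at the high dose, for example, was 2.23-fold over control (SE 0.35, 95% interval 1.34 to 3.73) with an adjusted p of 0.172 (limma). Against the other exposed groups, Cxcl5 was 9.02-fold higher at the high than at the medium dose (adjusted p 0.00158) and 8.45-fold higher than at the low dose (adjusted p 0.000923, limma with Benjamini-Hochberg adjustment). Without slide 6, which leaves 3 medium-dose dams, the adjusted p against the medium dose was 0.0613. The fitted trend per dose step was log2 0.91 (SE 0.12, adjusted p 0.0026, limma), with the step itself falling between the medium and the high dose.

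The lung channel carried the change. The mean log2 Cy5 signal of Cxcl5 was 9.54 ± 1.21 at the high dose and 6.52 ± 0.22 in controls, while the reference channel gave 9.80 ± 0.09 and 9.85 ± 0.08 on the same arrays (SD, n = 5 each). The raw lung signal was 384 to 2771.5 intensity units in high-dose dams and 137 to 210 in control dams. Its spot was well above background on every array but the 2 of slide 6. The probe lies at chr5:90732453-90732512 in mm7, the build named in the array files of slides 1 to 5. Among the 28 pairs that the 8 member probes form, the longest shared run was 8 bases and no ungapped alignment shifted by up to 30 bases matched at more than 26 of 60 positions.

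**Figure D2:**
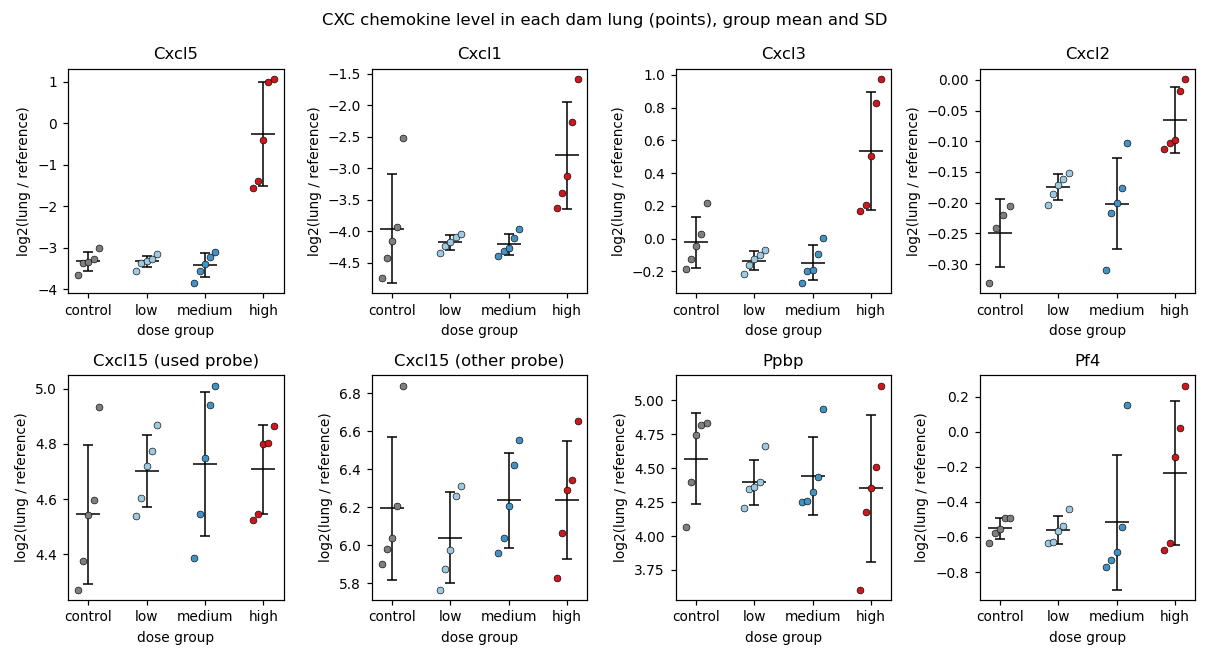
M, the log2 ratio of lung over reference, of each chemokine probe in control, low-, medium- and high-dose dams (points), with the group mean and SD (bars); each panel has its own vertical scale. The 5 high-dose dams lie above all 5 control dams for Cxcl5 and above the 4 control dams with a value for Cxcl2, whose probe was mostly not well above background, and overlap the controls for Cxcl1, Cxcl3, Cxcl15, Ppbp and Pf4. High-dose dams lay wholly above controls for 1.18% of the genes tested, which do not include Cxcl2.

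Cxcl1 and Cxcl3, ligands of the same receptor, had higher means at the high dose but did not pass the test against control. Cxcl1 M was -3.39, -2.27, -1.58, -3.63 and -3.12 in high-dose dams 60, 62, 63, 64 and 65, against -4.43, -4.15, -3.94, -4.75 and -2.52 in control dams 4, 7, 14, 15 and 18. Control dam 18 lay above 3 of the 5 high-dose dams, and the other 4 controls lay below all of them. The difference was log2 1.16 (SE 0.35, 2.23-fold, 95% interval 1.34 to 3.73, adjusted p 0.172 by limma). Without dam 18 it was 1.52 with an adjusted p of 0.0571. Cxcl1 stayed within -4.35 to -4.05 in low-dose dams and -4.40 to -3.97 in medium-dose dams, so the high-dose dams did not overlap either group. Those differences were 2.66-fold over the medium dose (adjusted p 0.156) and 2.60-fold over the low dose (adjusted p 0.14, limma), neither past the threshold of 0.05.

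Cxcl3 M was 0.17, 0.98, 0.83, 0.21 and 0.50 in high-dose dams 60, 62, 63, 64 and 65, against 0.22, 0.03, -0.13, -0.19 and -0.04 in control dams 4, 7, 14, 15 and 18. Control dam 4 lay above high-dose dams 60 and 64, and the remaining controls lay below every high-dose dam. The difference was log2 0.56 (SE 0.12, 1.47-fold, 95% interval 1.24 to 1.76) with an adjusted p of 0.0522 (limma, Benjamini-Hochberg), just outside the threshold. Over the 20 fits that each left out 1 dam, the adjusted p ranged from 0.0105 to 0.149 and was under 0.05 in only 3. Those 3 fits left out control dam 4 (0.0411), high-dose dam 60 (0.0105) or high-dose dam 64 (0.0264, limma). Low-dose dams ranged from -0.21 to -0.07 and medium-dose dams from -0.27 to 0.01, all below the high-dose dams. Cxcl3 was 1.61-fold higher at the high than at the medium dose (adjusted p 0.034) and 1.59-fold higher than at the low dose (adjusted p 0.0231, limma). With slide as a fixed term in the model these adjusted p were 0.318 and 0.0582, and with slide as a random block 0.0228 and 0.0121 (limma). Without slide 6 they were 0.45 and 0.051.

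The Cxcl3 spot was dim. It was well above background on 2 of 5 arrays in each of the control, low-dose and medium-dose groups and on 5 of 5 high-dose arrays, so it met the brightness filter (3 of 5 arrays of a group) only through the group where it is high. With no such filter its adjusted p was 0.0496 against control, 0.038 against the medium dose and 0.026 against the low dose (limma), and its fold values compare a measured group with groups mostly not well above background. Its lung signal was 123.5 to 284.5 intensity units at the high dose and 94 to 126.5 in controls. With the scanner software's own log ratios, which use background-subtracted signals with no offset, the high-dose difference from control was log2 2.37 in place of 0.56 (adjusted p 0.0919, limma), and with median centring it was 0.84.

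Cxcl2 did not meet the brightness filter and was not among the genes tested: its probe was well above background on 1 of 5 arrays in controls, on none at the low or medium dose and on 2 of 5 at the high dose. Its lung signal was 91.5 to 119 units at the high dose and 83 to 112 in controls, over a local background of 75 to 87. M was -0.11, -0.02, 0.00, -0.10 and -0.10 in high-dose dams 60, 62, 63, 64 and 65, against -0.33, -0.22, -0.24 and -0.21 in control dams 7, 14, 15 and 18 (the spot of dam 4 was marked as an outlier). These ranges did not overlap, but most of these spots were not well above background and no difference is given. High-dose dams lay wholly above controls for 1.18% of the genes tested, which do not include Cxcl2. Non-overlap is easier to reach with its 4 control values.

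Cxcl15, the chemokine of lung epithelium, did not pass the test at any dose. On the brighter of its 2 probes M was 4.80, 4.52, 4.86, 4.81 and 4.54 in high-dose dams 60, 62, 63, 64 and 65, against 4.54, 4.27, 4.93, 4.60 and 4.38 in control dams 4, 7, 14, 15 and 18. The groups overlapped throughout. The high-dose difference was log2 0.16 (1.12-fold, 95% interval 0.94 to 1.34, adjusted p 0.624 by limma), and the other probe gave log2 0.04 (0.80 to 1.32-fold). The lung signal, 20290 to 36232 units at the high dose and 19016 to 28676 in controls, was far above background. With the arrays scaled to one spread, the difference turned to log2 -0.14 (adjusted p 0.728). Across the 20 arrays Cxcl15 correlated with the mean of the alveolar type 2 markers at r = 0.882, with the endothelial markers at 0.881 and with the club cell markers, of the airway secretory cells, at -0.09. These correlations describe arrays that share a reference and are given without a test.

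Ppbp, the platelet granule precursor of the Cxcr2 ligand NAP-2, had M of 4.18, 3.61, 4.51, 5.11 and 4.35 in high-dose dams 60, 62, 63, 64 and 65, against 4.07, 4.40, 4.83, 4.82 and 4.74 in control dams 4, 7, 14, 15 and 18. High-dose dam 62 was below and dam 64 above every control. The log2 difference was -0.22 (95% interval 0.63 to 1.16-fold, adjusted p 0.718 by limma). Ppbp tracked the platelet genes from dam to dam: its correlation with the mean of 14 platelet and megakaryocyte markers was 0.957 over the 20 arrays and 0.962 over the 15 arrays without the high dose. The same marker mean was lowest in high-dose dam 62 (1.06) and highest in dam 64 (1.89), the dams at the ends of the Ppbp range.

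Pf4 had M of -0.68, -0.63, 0.02, -0.14 and 0.26 in high-dose dams 60, 62, 63, 64 and 65, against -0.58, -0.49, -0.63, -0.55 and -0.49 in control dams 4, 7, 14, 15 and 18. High-dose dams 63, 64 and 65 lay above all controls and dams 60 and 62 did not. The difference was log2 0.32 (1.25-fold, 95% interval 0.98 to 1.59, adjusted p 0.441 by limma). Its correlation with the platelet marker mean was 0.351 over the 20 arrays and 0.559 over the 15 without the high dose. For Ppbp the same correlations were 0.957 and 0.962. Of the 14 platelet markers tested none passed at the high dose, with a median log2 difference of -0.22. Over all genes 0.341% passed, with a median of -0.002. The smallest p were those of Gp1ba, a subunit of the von Willebrand factor receptor (log2 -0.61, adjusted p 0.117), Gp6, the collagen receptor (-0.34, adjusted p 0.217), and Gp5 (-0.34, adjusted p 0.26, limma).

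**Figure D3:**
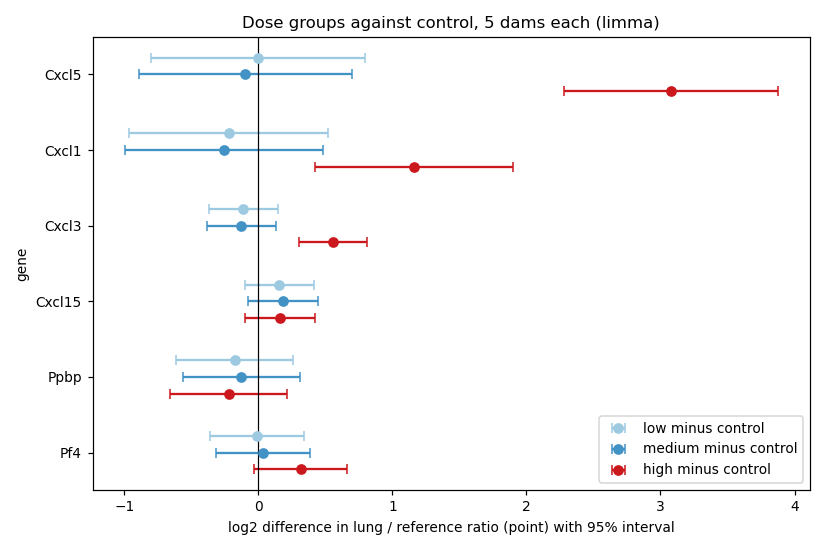
Log2 difference in M (points) with its 95% interval (bars) for low, medium and high dose against control in the 6 tested chemokines, 5 dams per group. Cxcl5 at the high dose, at 3.08, lies apart from the other chemokines, and all low- and medium-dose intervals include 0.

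Counted together, 1 of the 6 tested chemokines passed the test at the high dose against control, where 0.341% of all 19926 genes passed in either direction and 0.196% rose. Cxcl3 is among the 6 only through its high-dose arrays, so the counts that follow describe the genes and support nothing about the group. Between high and medium dose 2 of 6 passed (Cxcl5 and Cxcl3), where 0.0954% of all genes did, and between high and low dose the same 2 passed, where 0.166% did. With Cxcl3 set aside, Cxcl5 was the chemokine that passed in each of these comparisons. Along the dose trend 1 of 6 passed, against 0.306% of all genes. The shares of all genes rest on few dams: with single dams left out, 7 to 153 genes passed at the high dose against control, 4 to 116 against the medium dose and 13 to 143 against the low dose, in place of 68, 19 and 33. No chemokine passed at the medium dose against control, where 0.00502% of genes did, nor in the low-dose or medium-against-low comparisons, where no gene did by limma, with 1332 and 660 genes at an unadjusted p under 0.05. High-dose dams lay wholly above the control dams for 1 of the 6 (1.18% of all genes), and wholly above the medium-dose dams (0.532%) and the low-dose dams (1.22%) for Cxcl5, Cxcl1 and Cxcl3. These comparisons share their high-dose or control dams and are not independent. When each comparison was fitted on its own 10 dams, none of the 6 passed at the high dose, and Cxcl5 had an adjusted p of 0.122 against control.

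Within single slides the high-dose dam exceeded the control dam for Cxcl5 on 5 of 5 slides, by log2 1.77, 4.02, 4.44, 2.28 and 2.88 on slides 1 to 5. For Cxcl1 it did so on 4 of 5 slides, by -0.60 to 2.36, with slide 5, the slide of control dam 18, as the exception. Cxcl3 was higher on 4 of 5 slides, by -0.05 to 0.95, with slide 1 as the exception. Cxcl15 was higher on 4, Pf4 on 3 and Ppbp on 2 of the 5 slides. The high-dose dam also exceeded the low-dose dam on all 5 slides for Cxcl5, Cxcl1 and Cxcl3, and the medium-dose dam on all 3 slides that held both.

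**Figure D4:**
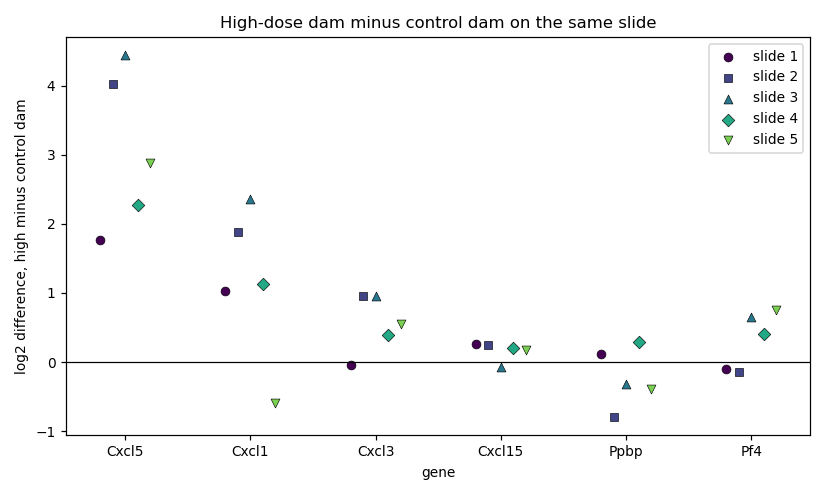
Log2 difference between the high-dose dam and the control dam hybridised on the same slide, for 6 chemokines and 5 slides (symbols). All 5 Cxcl5 differences are above 0, from 1.77 to 4.44, while those of Ppbp fall on both sides of 0.

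The 5 high-dose dams differed from each other in a similar order for the 3 inducible ligands that were tested. Dams 62 and 63 were the highest for Cxcl5, Cxcl1 and Cxcl3, dam 65 came next, and dams 60 and 64 were the lowest. Their order differed for Ppbp, where dam 64 was highest and dam 62 lowest, and for Pf4, where dam 65 was highest. Over all 20 arrays Cxcl5 correlated with Cxcl3 at 0.948 and with Cxcl1 at 0.84, but over the 15 arrays without the high dose at 0.321 and 0.204. The pooled values rest on the high-dose dams.

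The 5 genes whose M was most like that of Cxcl5 over the 20 arrays were Noxo1, an organiser of the NADPH oxidase (r = 0.971), Ly6f, a Ly6 surface protein (0.96), Cxcl3 itself (0.948), Lcn2, the siderophore-binding lipocalin of neutrophils and epithelium (0.935), and Mmp12, the macrophage elastase (0.935). Without the high dose the same correlations were 0.509, 0.0477, 0.321, 0.415 and -0.30 over 15 arrays. Noxo1 M was 1.00, 2.25, 2.38, 1.44 and 1.78 in high-dose dams 60, 62, 63, 64 and 65, against 0.77, 0.63, 0.77, 0.35 and 0.63 in control dams 4, 7, 14, 15 and 18. At the high dose against control the log2 difference was 1.14 for Noxo1, 1.71 for Ly6f, 1.13 for Lcn2 and 0.93 for Mmp12. These genes were picked for likeness to Cxcl5 over arrays that include the high dose, so their high-dose differences and their order of dams follow from the choice and are given without a test.

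Genes that flank the chemokine cluster did not pass the test at the high dose. Rassf6, annotated next to Cxcl5, differed by log2 -0.09 (adjusted p 0.614, limma) and Afm by -0.03 (adjusted p 0.976). On the far side Epgn, an epidermal growth factor family ligand, differed by -0.12 (adjusted p 0.397). Within the cluster Ppbp and Pf4, which lie between Cxcl5 and Cxcl3, did not pass.

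Of 5 CXC chemokine receptors and scavengers, 4 were tested and none passed at the high dose, with a median log2 difference of 0.06. Over all genes 0.341% passed, with a median of -0.002. Ackr1, a vascular receptor that binds these and other inflammatory chemokines, differed by log2 0.42 (adjusted p 0.157), Cxcr4, the receptor of Cxcl12, by 0.11 (adjusted p 0.748) and Cxcr2, the neutrophil receptor of the ELR ligands, by -0.21 (adjusted p 0.848, limma). Cxcr1 was on the array but never well above background.

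Among the cytokines that induce these chemokines, and their receptors, 1 of 13 tested genes passed at the high dose against control, with a median log2 difference of 0.11. Over all genes 0.341% passed, with a median of -0.002. Csf2, which encodes GM-CSF, averaged M of 2.09 at the high dose and 1.41 in controls, a rise of log2 0.68 (SE 0.12, adjusted p 0.0209, limma). Il1rn, the IL-1 receptor antagonist (log2 0.53, adjusted p 0.0534), Il33, an alarmin of lung epithelium (0.56, adjusted p 0.137), Tnf (0.31, adjusted p 0.179) and Il6 (0.48, adjusted p 0.249) did not pass. Il1a and Il1b differed by 0.00 and -0.18. Along the dose trend 2 of the 13 passed, Csf2 (adjusted p 0.0194) and Il1rn (adjusted p 0.0497, limma), where 0.306% of all genes did. Between high and low dose 2 of the 13 passed, both higher, where 0.166% of all genes did. Between high and medium dose none did, against 0.0954% of all genes. Il17a, Il17f, Csf3, Il22 and Il23a were on the array but never well above background, so these 5 inducers could not be followed.

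None of 26 tested genes of NF-kB and IL-17 signalling passed at the high dose against control, with a median log2 difference of 0.13. Over all genes 0.341% passed, with a median of -0.002. Of the 26, the smallest p belonged to feedback genes: Tnfaip3, the ubiquitin-editing brake A20, differed by log2 0.37 (adjusted p 0.0511), Birc3 by 0.36 (adjusted p 0.102) and the inhibitor Nfkbie by 0.39 (adjusted p 0.119, limma). Along the dose trend 1 of the 26 passed, Tnfaip3 (adjusted p 0.0497, limma), where 0.306% of all genes did. Between high and low dose 2 of the 26 passed, both higher, where 0.166% of all genes did. Between high and medium dose none did, against 0.0954% of all genes. The mean of these genes per dam was 0.14 to 0.42 at the high dose and 0.02 to 0.21 in controls. Among high-dose dams it was highest in 63 (0.42) and 62 (0.31) and lowest in 65 (0.14). Its correlation with Cxcl5 was 0.755 over 20 arrays and 0.272 over the 15 without the high dose. None of 13 rhythm genes, which follow the time of day, passed, with a median of -0.30.

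Of 18 tested markers of neutrophils, the cells these ligands attract, 1 passed at the high dose, where 0.341% of all genes did. It was Lcn2 (log2 1.13, adjusted p 0.0326, limma), which epithelium also expresses. The median log2 difference of the 18 was -0.15, against -0.002 over all genes. Their mean M had a median of 1.67 and a highest value of 1.91 in high-dose dams, against 1.70 and 2.33 in control dams. The calgranulin genes S100a8 and S100a9 differed by -0.30 (adjusted p 0.788) and -0.02 (adjusted p 0.981), and the myeloperoxidase gene Mpo by -0.05 (adjusted p 0.9). Camp, the cathelicidin of granules, was at log2 -1.22 (adjusted p 0.11) and Ngp, another granule protein, at -0.97 (adjusted p 0.144). In both the high-dose dams lay wholly below the control dams, as they did for 1.39% of all genes. Elane was never well above background. The correlation of Cxcl5 with the neutrophil marker mean was 0.101 over 20 arrays.

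Of 9 tested markers of monocytes and recruited macrophages, 1 passed at the high dose, where 0.341% of all genes did. It was the membrane protein Ms4a7 (log2 0.97, adjusted p 0.0187, limma). The median log2 difference of the 9 was 0.31, against -0.002 over all genes. Their mean M was 0.70 to 1.06 in high-dose dams against 0.34 to 0.85 in control dams. Of 10 alveolar macrophage markers 1 passed, the lectin Siglecf (log2 -0.81, adjusted p 0.0305), with a median of -0.02 and means of 2.97 to 3.61 at the high dose and 3.26 to 4.05 in controls. No marker of alveolar type 2, club, endothelial, fibroblast or erythroid cells passed, out of 10, 8, 8, 8 and 5 tested. The monocyte marker mean correlated with Cxcl5 at 0.845 over 20 arrays and at 0.435 over the 15 without the high dose. The part that a change of cell content plays in the Cxcl5 rise was not tested.

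**Figure D5:**
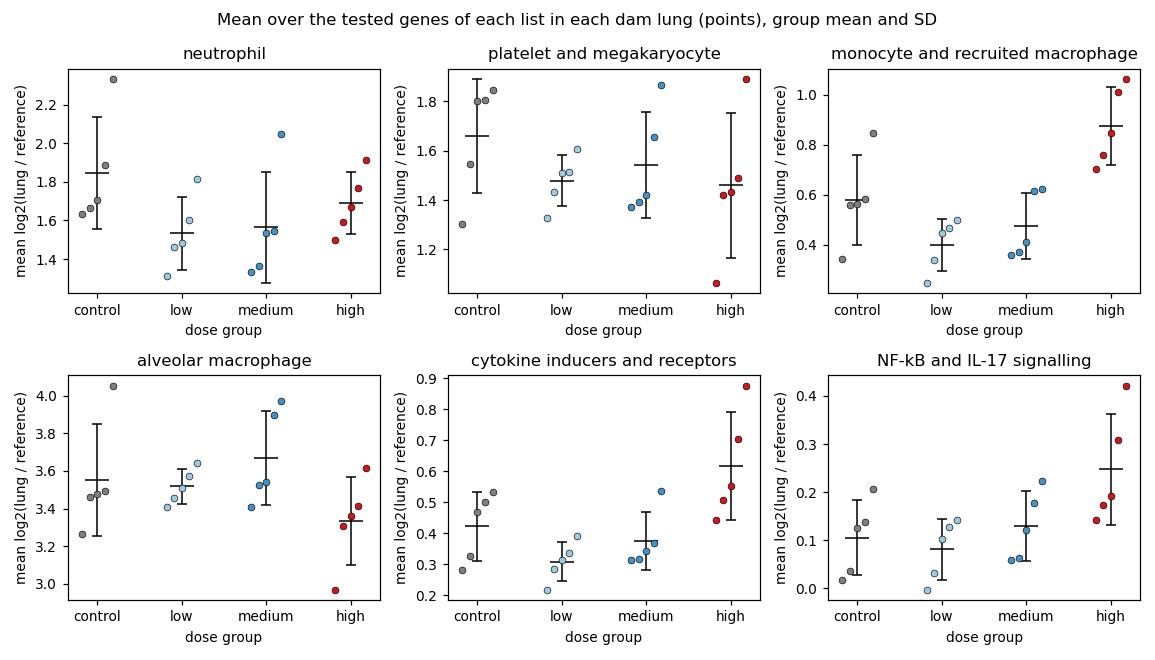
Mean M over the tested genes of 6 gene lists in each dam (points), with the group mean and SD (bars), by dose group. The monocyte means of high-dose dams, 0.70 to 1.06, lie mostly above those of the other groups, whereas the neutrophil means of high-dose dams, with a median of 1.67, overlap those of controls, with a median of 1.70.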

How the data were processed

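Lung RNA of 20 dams was measured, 5 per group. Per the labels, lung cRNA carried Cy5 and universal reference cRNA Cy3. The authors deposited Feature Extraction spot tables, in scanner intensity units, which also hold the software's log10 ratio, and a value table of log2 ratios. Per the file headers, software 9.5.1.1 was used for most arrays and 10.1.1.1 for slide 6. For the value table the normalisation is not stated in the labels or headers.

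Median signals were corrected with normexp (offset 50), its model fitted after leaving out the 0.1% of spots at each end, and loess-normalised within arrays. The offset pulls dim ratios towards 0. Probes well above background in Cy5 on at least 3 of 5 arrays of a group were kept, the brightest probe per gene was used, and genes measured on fewer than 16 arrays were dropped. One limma 3.58.1 model (R 4.3.3) covered all 20 arrays, two-sided, with Benjamini-Hochberg adjustment over 19926 genes and a threshold of 0.05. The limma fit and adjustment were checked on simulated M values drawn with the same spread in every dose group. Cxcl5 differed from that setting, with an SD of 1.26 at the high dose and 0.23 in controls. Array numbers limit precision; p-values measure the spread between dams.

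Genes named are all 7 chemokines, the members of each list that passed (or the 3 with the smallest p), and the 5 genes most like Cxcl5; Tnf, Il6, Il1a, Il1b, S100a8, S100a9 and Mpo were added after their values were seen. The chemokines and lists were chosen with earlier results of these data known. Genes named in the lists but without a probe were not analysed here. Alternatives were other background corrections, normalisations, filters, probe rules, slide terms and omitted arrays.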

Additional observations from a re-analysis of the deposited data

Results flagged for a closer look

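Of the 32 groups of dams examined (8 probes in 4 groups), 2 had a dam far from the rest by Dixon's criterion (0.71 for 5 dams), where chance alone gives about 1 in 20. Both were medium-dose dam 50, with an M of 4.939 for Ppbp and 0.1556 for Pf4, against at most 4.44 and -0.54 in the other medium-dose dams. Its mean of the 14 platelet markers was 1.86, against 1.37 to 1.66 in the other medium-dose dams, and the part of platelet content in these values was not tested. Dam 49, on the same slide as dam 50, had 4.33 for Ppbp and -0.73 for Pf4, within the range of the medium-dose dams on other slides.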

How the results depend on the processing

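Cxcl5 was higher at the high dose than in controls under all 36 alternatives, at log2 2.74 to 4.10. Its adjusted p exceeded 0.05 under 1 of them, the fit of the 2 compared groups alone (0.122, limma), where the difference was the same log2 3.08. Cxcl1 passed under none of 36, at 0.86 to 1.63, and Cxcl3 under 11 of 36, at 0.45 to 2.37. The number of chemokines passing at the high dose against control was 2 with no background correction, the deposited value table, median centring, scaling between arrays, Cy5 alone, no filter, the mean of a gene's probes or slide as a random block, and 0 with 2 groups alone. Over all genes it ranged from 1 to 207 against 68, the low end again with 2 groups alone. Single dams moved the count of all genes by over 1.5 times: against control to 7 to 153 (control 7, 15 and 18, low 25, high 60, 62, 63 and 65), against the medium dose to 4 to 116 in place of 19 (low 25 and 27, every medium dam except 47, every high dam), against the low dose to 13 to 143 in place of 33 (every low dam except 28, every high dam), and for the trend to 12 to 135 in place of 61 (control 7, 15 and 18, low 28, 31 and 36, medium 50, high 60, 62, 63 and 65). The highest counts were without high 60. Against the medium dose it was 1 with normexp fitted on all spots or slide as a fixed term, and 0 without slide 6 or with 2 groups alone. Cxcl5 then differed by 3.14 and 3.17 (adjusted p 0.0613 and 0.178). Against the low dose it was 1 with slide fixed or without slide 6, and 0 with 2 groups alone. For the trend it was 2 with no background correction, the value table, scaling or slide as a random block. Leaving out 1 dam gave 1 to 2 at the high dose against control, medium and low dose and for the trend. The count was 2 against control without control 4, high 60 or high 64, and 2 for the trend without high 60 or high 64. It was 1 against the medium dose without low 25 or 27, any medium dam except 46, or high 62, 63 or 65, and 1 against the low dose without any low dam, or high 62, 63 or 65, since Cxcl3 then missed the threshold. Of 1503 values for the 6 tested chemokines in the 7 comparisons, 82 changed sign. None of these was past the threshold before or after (lowest adjusted p 0.659, limma), and the reported differences were at most 0.25 in size on the log2 scale. At the low dose against control, Cxcl1 became -0.42 to 0.14 with single dams left out (sign changed without control 18). Cxcl5 became 0.26 with normexp on all spots, 0.0445 with no background correction, 0.0496 with the value table, 0.10 with scaling and -0.0851 to 0.078 with single dams left out (sign changed without control 7, low 27, low 31 or control 18). Cxcl15 became -0.10 with Cy5 alone. Pf4 became 0.00613 with scaling, 0.0119 with Cy5 alone and -0.0403 to 0.00754 with single dams left out (sign changed without control 7, low 27, low 28 or control 18). At the medium dose against control, Cxcl1 became -0.45 to 0.11 with single dams left out (sign changed without control 18). Cxcl5 became 0.00725 with no background correction, 0.0216 with the value table, 0.11 with scaling and -0.18 to 0.0077 with single dams left out (sign changed without medium 48). Cxcl15 became -0.0958 with scaling and -0.00338 with slide as a fixed term. Ppbp became 0.20 with the software's log ratio. Pf4 became -0.00449 with the software's log ratio, -0.0286 with slide as a fixed term, -0.12 without slide 6 and -0.13 to 0.0985 with single dams left out (sign changed without medium 50). At the high dose against control, Cxcl15 became -0.14 with scaling. At the medium dose against low dose, Cxcl1 became 0.0234 with no background correction, 0.0179 with the value table, 0.10 with scaling and -0.093 to 0.0149 with single dams left out (sign changed without medium 46 or low 28). Cxcl3 became 0.0339 with no background correction, 0.13 with the software's log ratio, 0.048 with the value table, 0.0391 without slide 6 and -0.0532 to 0.0154 with single dams left out (sign changed without low 25 or medium 50). Cxcl5 became 0.00582 with scaling and -0.17 to 0.00977 with single dams left out (sign changed without medium 48). Cxcl15 became -0.00464 with the software's log ratio, -0.11 with scaling, -0.0162 with slide as a random block, -0.16 with slide as a fixed term, -0.14 without slide 6 and -0.0468 to 0.11 with single dams left out (sign changed without low 36, medium 49 or medium 50). Ppbp became -0.084 with scaling, -0.0801 without slide 6 and -0.0771 to 0.11 with single dams left out (sign changed without medium 50). Pf4 became -0.0181 with slide as a fixed term, -0.11 without slide 6 and -0.12 to 0.11 with single dams left out (sign changed without medium 50). At the high dose against low dose, Cxcl15 became -0.0152 with no background correction, -0.0195 with the software's log ratio, -0.0288 with the value table, -0.16 with scaling and -0.0348 to 0.0515 with single dams left out (sign changed without high 60, low 27, high 63, high 64 or low 36). Ppbp became 0.31 with normexp on all spots, 0.0243 with median centring and -0.23 to 0.14 with single dams left out (sign changed without high 62 or low 31). At the high dose against medium dose, Cxcl15 became 0.0134 with median centring, 0.0573 with Cy5 alone, 0.0219 with slide as a random block, 0.17 with slide as a fixed term, 0.15 without slide 6 and -0.10 to 0.0524 with single dams left out (sign changed without high 62, high 65, medium 49 or medium 50). Ppbp became 0.0356 without slide 6 and -0.28 to 0.0949 with single dams left out (sign changed without high 62 or medium 50). For the trend over the 4 dose steps, Cxcl15 became -0.0538 with scaling. The causes were not tested. Dams share no replicate number, so they were not paired by number. Slides 1 to 5 each hold a control, a low-dose and a high-dose dam, and the pairing by slide was fitted as a fixed term: Cxcl5 then differed by log2 3.08 at the high dose against control (adjusted p 0.00394, limma). Dim spots limit Cxcl2 and Cxcl3.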
